A study of Mus musculus with 8 samples.

Results

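Tdpoz1, Tdpoz2, Tdpoz3, Tdpoz4, Tdpoz5 and their neighbour Gm4858 are 6 of the 46078 genes counted in RNA-seq libraries of mouse fully grown germinal vesicle (GV) oocytes. They were picked by name, as TD and POZ domain genes of chromosome 3. The pick rested on their higher counts in CNOT7&8 KO than in control oocytes. Their difference between the groups, and each call made on them, is therefore given as a description and not as evidence. The series compared 4 libraries of CNOT7&8 KO oocytes, whose floxed alleles (Cnot7 fl/fl, Cnot8 fl/fl) were targeted by Zp3-Cre, with 4 libraries of Zp3-Cre control oocytes. Both groups carry the Cre transgene, whose Zp3 promoter is active in growing oocytes. Females had a C57BL/6J background, were 4 weeks old and had received PMSG, and RNA of 100 oocytes went into each library. Nothing in the labels says whether the libraries of a group came from separate animals, so the p-values given for other genes measure the spread between these samples, which may be technical.

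TDPOZ proteins are named after their TRAF domain, also called the MATH domain, and their POZ domain, also called the BTB domain. SPOP, the best known protein with the same pair of domains, holds its substrates with the MATH domain and binds the scaffold CUL3 with the BTB domain, so that the substrate is ubiquitylated. Tdpoz genes are known from early mouse embryos, where their transcripts appear around the 2-cell stage, when the embryo first transcribes its own genome. Cnot7 and Cnot8 encode the exchangeable catalytic subunits of the CCR4–NOT complex that shorten the poly(A) tails of mRNAs.

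All 6 members lie on chromosome 3 of GRCm38 within 892 kb, from base 93068823 to base 93961314. In the GENCODE vM21 annotation they are protein-coding genes. Gm4858, which RefSeq calls Tdpoz8, occupies bases 93068823 to 93075505 on the plus strand and stands 576 kb from the next member. The others follow as Tdpoz2 (93651542 to 93652686, minus strand), Tdpoz1 (93669333 to 93676310, minus strand), Tdpoz4 (93796398 to 93797510, plus strand), Tdpoz3 (93826020 to 93827117, plus strand) and Tdpoz5 (93960292 to 93961314, minus strand). Only Gm4858 and Tdpoz1 are annotated with introns, with up to 3 and 2 exons, and the other 4 are single-exon genes. For Tdpoz3, Tdpoz4 and Tdpoz5 the annotation ends where the coding sequence does, at 1098, 1113 and 1023 bases.

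The coding sequences are so similar that a read can match more than 1 gene, and 60 aligned bases of each show how similar they are. The stretch covers coding bases 414 to 473, or 258 to 317 in Gm4858, whose coding sequence is shorter at its start, and was read from the GENCODE vM21 transcripts on GRCm38. Capitals mark a base other than the one that at least 4 of the 6 members share.
Tdpoz1: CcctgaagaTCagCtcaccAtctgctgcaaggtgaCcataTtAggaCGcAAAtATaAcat
Tdpoz3: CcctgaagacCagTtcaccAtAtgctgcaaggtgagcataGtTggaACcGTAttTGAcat
Tdpoz2: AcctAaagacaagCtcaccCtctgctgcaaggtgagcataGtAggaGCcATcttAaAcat
Tdpoz5: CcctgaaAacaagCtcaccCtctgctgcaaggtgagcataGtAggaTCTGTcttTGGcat
Tdpoz4: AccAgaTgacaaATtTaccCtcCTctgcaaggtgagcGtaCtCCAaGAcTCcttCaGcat
Gm4858: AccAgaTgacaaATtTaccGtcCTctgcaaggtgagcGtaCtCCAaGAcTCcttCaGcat
In 30 of the 60 columns all members had the same base. Tdpoz4 and Gm4858 carried 20 capitals each, in the same columns, and Tdpoz2 the fewest, 12. Over whole coding sequences, identity ranged from 78.4% to 94.3% in 15 pairs, with a median of 81.8%. The closest pair was Gm4858 and Tdpoz4 (94.3%), followed by Tdpoz1 and Tdpoz3 (88.1%) and by Tdpoz2 and Tdpoz5 (86.4%).

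Copies outside the 6 members are closer still, which limits what a count of a single member means. Windows of 150 bases, the length of a read, were taken from all annotated transcripts of each member. All those of Tdpoz5 were also found in Gm10697, Gm37596 or Gm5543. The share was 33.4% for Tdpoz3, whose matching copy is Gm4982, and 12.3% for Tdpoz1, matched by Gm9117 and Gm9125. For Tdpoz2 it was 8.8%. Tdpoz4 and Gm4858 shared windows with each other and with Gm5541, 6.5% of those of Tdpoz4 and 3.1% of those of Gm4858. How the authors' pipeline assigned reads that match several genes is not given in the sources used here. Counts of Tdpoz5 are therefore uncertain.

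Total counts of the control libraries ranged from 14943671 to 44092144 and those of the KO libraries from 8639444 to 26784110. Levels are given as CPM, counts relative to the library size after its scaling by TMM, and 3 counts, taken as the smallest detectable signal, made 0.0802 to 0.218 CPM in control and 0.102 to 0.326 CPM in KO libraries. These floors cover counting error only. In control and KO libraries Cnot8 averaged 168 and 35.2 CPM and Cnot7 averaged 933 and 719 CPM, less than a 2-fold difference, with counts taken over the whole of each gene and not over its deleted part alone. All 10 oocyte markers were detected, with summed levels from 13540 to 17470 CPM over the 8 libraries, and none was called higher or lower. The sources differ on the library kit, since the labels name one for total RNA with ribosomal RNA removal and the methods of the study one for mRNA, and which was used is not settled. KO replicates 3 and 4 stood apart from KO replicates 1 and 2 for the members and for other genes of the 2-cell stage, so each value is given by library.

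The members were nearly silent in control oocytes and abundant enough to count in KO oocytes. The summed counts of the 6 members were 12, 3, 6 and 2 in control replicates 1 to 4 and 63, 137, 707 and 1748 in KO replicates 1 to 4. In CPM the sum was 0.321, 0.148, 0.408 and 0.146 in control and 6.84, 7.52, 43.6 and 59.5 in KO libraries. Every KO library lay above every control library, but KO replicates 3 and 4 held far more than KO replicates 1 and 2, and the highest KO library had 8.70 times the level of the lowest. The group means were 0.256 ± 0.131 CPM (SD, n = 4) and 29.4 ± 26.4 CPM (SD, n = 4), a log2 ratio of 6.84. KO replicate 1, with the fewest total counts, had the lowest sum, and KO replicate 4, with the most, had the highest. KO replicate 3 had fewer total counts than KO replicate 2 but a higher sum. The part of depth in this was not tested.

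Across all genes, a gene was called where the quasi-likelihood test of edgeR gave a Benjamini-Hochberg adjusted p no higher than 0.05 and the groups differed 2-fold or more. By these criteria all 6 members were called higher in KO, beside 23.8% of the 19241 genes tested. In 3 members, Tdpoz1, Tdpoz3 and Gm4858, every KO library lay above every control library, as in 27.0% of all genes tested. Since the same contrast chose the members, nothing is read from these counts. Tdpoz2, Tdpoz4 and Tdpoz5 passed the filter on low counts only through KO replicates 3 and 4. With either of those libraries left out, 3 members were tested and all 3 were called.

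**Figure D1:**
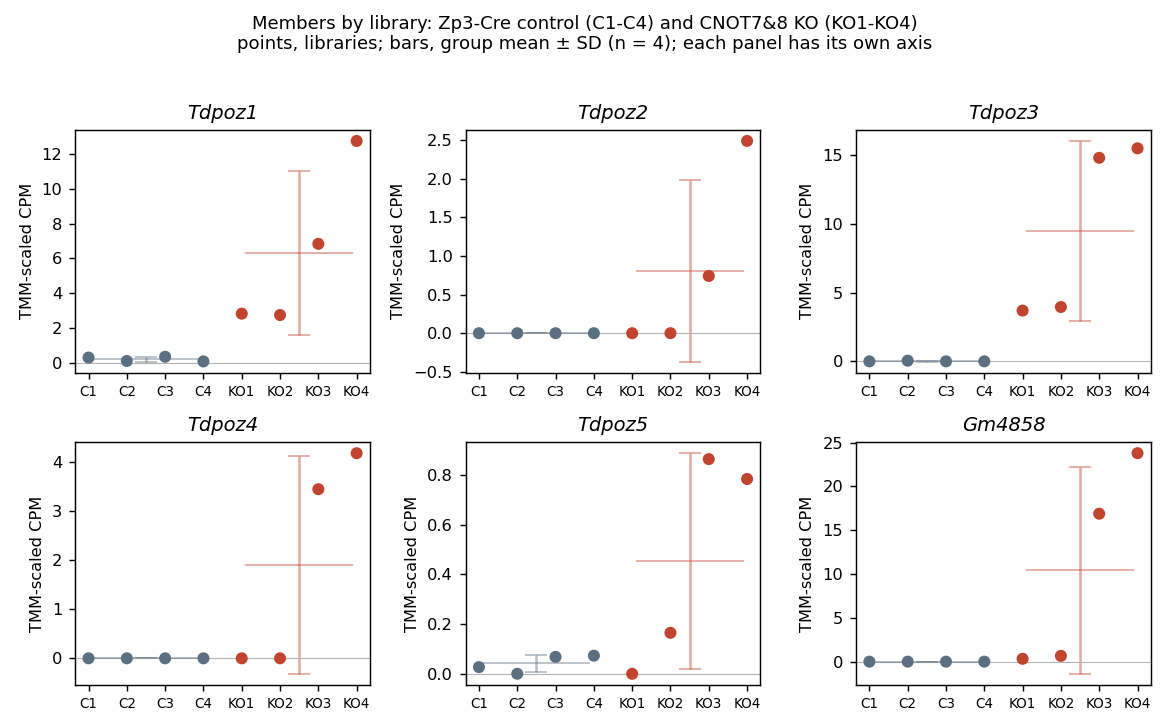
CPM of each member in the 4 Zp3-Cre control libraries (C1 to C4, grey) and the 4 CNOT7&8 KO libraries (KO1 to KO4, red), 1 point per library, with bars for the group mean ± SD (n = 4) and a separate linear axis in each panel. Tdpoz1 and Tdpoz3 are raised in all 4 KO libraries, whereas Tdpoz2 and Tdpoz4 are at 0 counts in KO1 and KO2 and reach 2.49 and 4.19 CPM in KO4.

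Tdpoz3 was nearly absent from control and present in each KO library. It had 0, 1, 0 and 0 counts in control replicates 1 to 4 and 34, 72, 240 and 455 counts in KO replicates 1 to 4, or 3.69, 3.95, 14.8 and 15.5 CPM. The groups did not overlap, and the KO libraries differed by 4.20 times between the lowest and the highest. The ratio of the pooled counts was 945, with a counting interval of 169 to 37400 that is wide because it rests on 1 control count.

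Tdpoz1 was the only member with more than 3 counts in a control library. It had 11, 2, 5 and 1 counts in control replicates 1 to 4, or 0.294, 0.0987, 0.340 and 0.0728 CPM. In KO replicates 1 to 4 it had 26, 50, 111 and 375 counts, or 2.82, 2.75, 6.84 and 12.8 CPM. Again the groups did not overlap, and the spread among KO libraries was 4.65 times. The fitted log2 fold change was 4.87, given as a description. Tdpoz1 supplied 19 of the 23 member counts found in all control libraries (82.6%).

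Gm4858 had no count in any control library and the widest range among the KO libraries. KO replicates 1 to 4 had 3, 12, 274 and 699 counts, or 0.326, 0.659, 16.9 and 23.8 CPM, which is 73.1 times between the lowest and the highest. Its KO mean of 10.4 CPM, with an SD of 11.8 (n = 4), was at least 64.1-fold higher than the control floor of 3 counts per library, 0.163 CPM on average. In KO replicate 1 the level was no more than that library's own floor of 0.326 CPM.

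Tdpoz4 and Tdpoz2 were seen in KO replicates 3 and 4 only. Tdpoz4 had 0 counts in all control libraries and in KO replicates 1 and 2, and 56 and 123 counts, or 3.45 and 4.19 CPM, in KO replicates 3 and 4. Tdpoz2 had 0 counts in the same 6 libraries, and 12 and 73 counts, or 0.740 and 2.49 CPM, in KO replicates 3 and 4. Because 3 counts made 0.326 CPM in KO replicate 1 and 0.165 CPM in KO replicate 2, levels below these would not have been detectable there. The KO means were at least 11.7-fold higher than the control floor for Tdpoz4 and at least 4.96-fold higher for Tdpoz2.

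Tdpoz5 had the lowest mean in KO and the largest share of windows found in other genes. It had 1, 0, 1 and 1 counts in control replicates 1 to 4 and 0, 3, 14 and 23 counts in KO replicates 1 to 4, so the groups overlapped. The pooled counts gave a ratio of 15.7, with a counting interval of 5.01 to 79.5. Gm10697, which RefSeq calls Tdpoz7 and whose sequence matches the 1023 coding bases of Tdpoz5 at 100% identity, had no count in control and in KO replicates 1 and 2, and 10 and 21 counts in KO replicates 3 and 4.

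Levels of different members can be set side by side only per length, here as CPM per kb of annotated exon. Tdpoz3 was the highest member in all 4 KO libraries on this scale, at 3.36, 3.60, 13.5 and 14.1 CPM per kb. Which member came next depended on the library. Tdpoz1 did in KO replicates 1 and 2, at 1.20 and 1.17 CPM per kb against 0.152 and 0.308 for Gm4858. Gm4858 did in KO replicates 3 and 4, at 7.89 and 11.1 CPM per kb against 2.91 and 5.43 for Tdpoz1. By mean level per kb the order was Tdpoz3 at 8.64 ± 5.96 (SD, n = 4), Gm4858 at 4.86 ± 5.51, Tdpoz1 at 2.68 ± 2.01, Tdpoz4 at 1.72 ± 2.0, Tdpoz2 at 0.704 ± 1.02 and Tdpoz5 at 0.443 ± 0.424. These SDs are between libraries and do not measure how firm the order is within a library. The scale also ignores windows found in other genes, 33.4% for Tdpoz3 and 100% for Tdpoz5 against 3.1% for Gm4858. For Tdpoz3, Tdpoz4 and Tdpoz5 the annotated length holds coding bases only. The part of either in the order was not tested. Only Tdpoz3 kept the same rank in all 4 KO libraries.

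The 4 KO libraries differed not only in the amount but also in the mix of members, a measure that the comparison with control did not use. Gm4858 made up 4.76% of the member counts in KO replicate 1 (95% Wilson interval 1.63% to 13.1%) and 8.76% in KO replicate 2 (5.08% to 14.7%). In KO replicates 3 and 4 it made up 38.8% (35.2% to 42.4%) and 40.0% (37.7% to 42.3%). The intervals of the first pair of libraries did not reach those of the second pair. Tdpoz3 went the other way, with 54.0% and 52.6% in KO replicates 1 and 2 against 33.9% and 26.0% in KO replicates 3 and 4. Tdpoz1 had 41.3% and 36.5% in the first pair and 15.7% and 21.5% in the second.

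Tdpoz4, absent from KO replicates 1 and 2, made up 7.92% and 7.04% of the member counts in KO replicates 3 and 4. A count of 0 among the 137 member counts of KO replicate 2 allows a share of up to 2.19%, which is below both, and 0 of 63 in KO replicate 1 allows up to 4.76%, taking 3 counts as the limit. The upper Wilson limits, which the plot of shares uses, were 2.73% and 5.75%. Tdpoz2 made up 1.70% and 4.18% in KO replicates 3 and 4, so that its absence from KO replicate 1 was within what that depth allows. Chi-square per degree of freedom over the 4 KO libraries, which is near 1 under counting error alone, was 27.5 for Gm4858, 22.8 for Tdpoz3 and 15.8 for Tdpoz1. It was 5.71 for Tdpoz2, 5.42 for Tdpoz4 and 0.964 for Tdpoz5. These values describe the 4 libraries and cover counting error only.

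**Figure D2:**
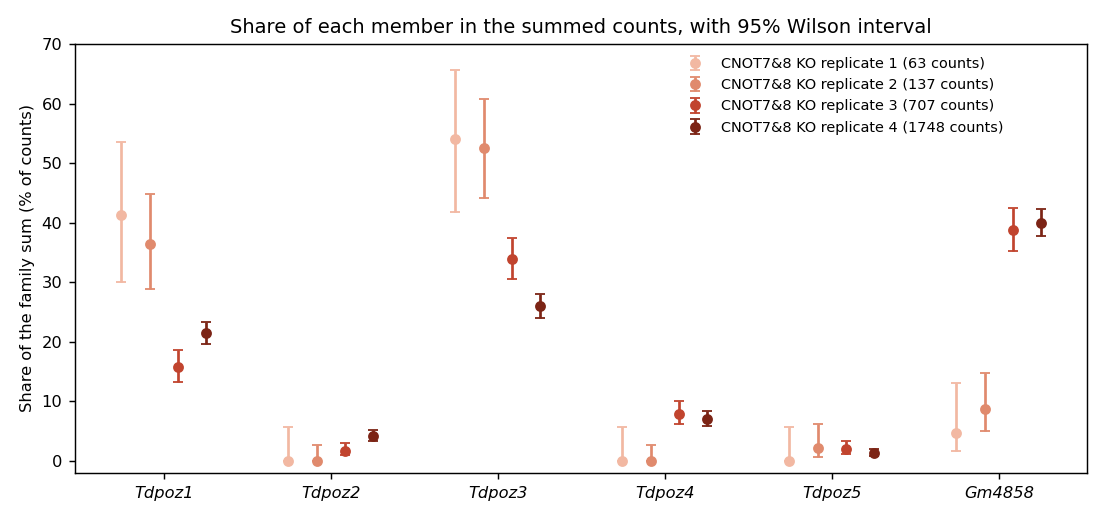
Share of each member in the summed counts of the 6 members (%, vertical axis) in each CNOT7&8 KO library, with 95% Wilson intervals as bars and the number of member counts in the legend. Gm4858 rises from 4.76% and 8.76% in replicates 1 and 2 to 38.8% and 40.0% in replicates 3 and 4, and Tdpoz3 and Tdpoz1 take smaller shares there.

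The region holds more genes of the same kind. Of the 111 other genes that start within 500 kb of a member, 19 match a member's coding sequence over at least 500 bases at 75% identity or more. These near copies lie between bases 93628640 and 94266784, and 2 more, Gm27228 and Gm27150, are on chromosome 7. Of these 21 genes, 13 are annotated as pseudogenes and 8 as protein-coding, with 81.0% to 100% identity to the nearest member. The split by similarity was chosen after the values of some of these genes had been seen, and near copies can share reads with members.

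Like the members, the near copies summed higher in KO replicates 3 and 4 than in KO replicates 1 and 2. Their sum, most of it from Gm9124 in control, differed less between control and KO replicates 1 and 2 than that of the members. The 19 on chromosome 3 summed to 12.4, 9.52, 9.05 and 8.81 CPM in control replicates 1 to 4 and to 15.3, 15.2, 69.0 and 83.1 CPM in KO replicates 1 to 4. Of the 17 that passed the filter, 15 were called higher and none lower (88.2% higher, beside 23.8% of all genes), with a median log2 fold change of 5.77 against 0.12 over all genes tested. The call rested on KO replicates 3 and 4. Without KO replicate 3, 6 passed the filter and 4 were called. Without KO replicate 4, 6 passed and 3 were called. Since most of the 17 passed the filter only with both KO replicates 3 and 4, nothing is read from the share called. Every KO library lay above every control library in 5 of the 17, beside 27.0% of all genes tested. In all 18 near copies with more than 3 KO counts, both KO replicates 3 and 4 lay above both KO replicates 1 and 2, and 7 of the 21 had counts in both KO replicates 3 and 4 and none in KO replicates 1 and 2. How often this pattern occurs over all genes was not counted, here or for the lists below, so nothing is read from its counts.

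The 3 neighbours with the largest change, Gm9131, Gm5541 and Flg2, had no control count. Gm9131, an unprocessed pseudogene nearest to Tdpoz5, had 0, 3, 61 and 133 counts in KO replicates 1 to 4, at least 13.0-fold higher than the control floor. Gm5541, an unprocessed pseudogene with 97.3% identity to Tdpoz4, had 0, 0, 52 and 116 counts, close to the 0, 0, 56 and 123 of Tdpoz4 itself, and was at least 11-fold higher than the floor.

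The 2 near copies with the most control counts, singled out after their values were seen, were the 2 tested and not called. Gm9124, an unprocessed pseudogene, averaged 7.59 CPM in control (SD 1.63, n = 4) and 12.2 CPM in KO (SD 1.81, n = 4), with no overlap and a log2 fold change of 0.68, below the 2-fold threshold (adjusted p = 0.00856 by quasi-likelihood in edgeR). Its KO libraries spread over 10.6, 10.7, 13.6 and 14.0 CPM. Gm5286, annotated as protein-coding, was at 1.60 ± 0.128 CPM in control and 3.30 ± 2.47 CPM in KO, with KO replicates 1 and 2 below every control library at 1.09 and 1.32 CPM and KO replicates 3 and 4 at 4.81 and 5.99 CPM.

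Of the 92 genes of the region that do not resemble the members, 38 had a count, 17 passed the filter, 8 were called higher and 1 lower, and the median log2 fold change of those tested was 1.64. Both KO replicates 3 and 4 lay above both KO replicates 1 and 2 in 2 of the 17, Tchhl1 and Tchh, named after their values were seen, with 0.651, 1.26, 2.59 and 2.49 CPM in KO replicates 1 to 4 for Tchhl1. The sum over the 92, most of it from Mrpl9, was 184, 176, 175 and 166 CPM in control replicates 1 to 4 and 190, 183, 170 and 167 CPM in KO replicates 1 to 4. The largest change in this set was that of Flg2, which encodes the epidermal protein filaggrin-2, with 11, 10, 22 and 34 counts in KO replicates 1 to 4, at least 6.54-fold higher than the floor. Together with the near copies, 23 of the 34 neighbours tested were called higher and 1 lower, beside 23.8% and 6.56% of all genes. Most near copies passed the filter only with both KO replicates 3 and 4, so nothing is read from this share. The 24 called neighbours became 9 of 22 tested without KO replicate 3 and 11 of 23 without KO replicate 4. The 8 higher ones with no such match became 4 without KO replicate 3 and 5 without KO replicate 2.

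**Figure D3:**
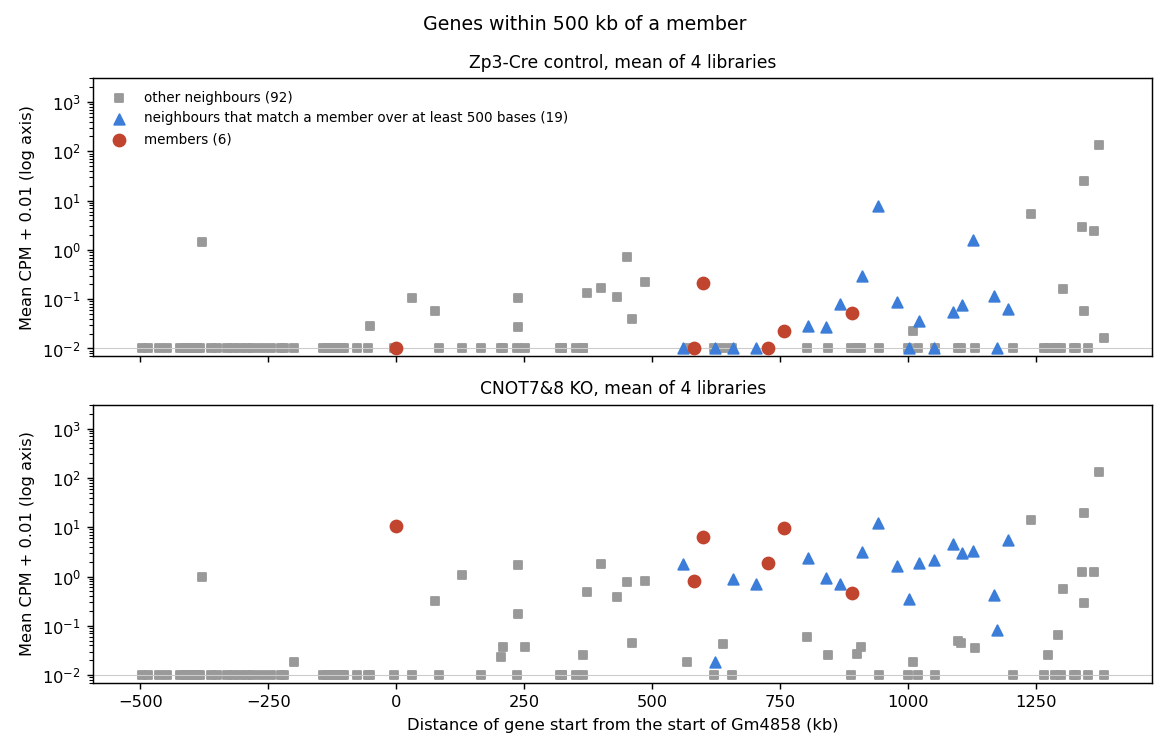
Mean CPM (+ 0.01, log axis) of the members (red), of the 19 neighbours that match a member over at least 500 bases (blue) and of the 92 other neighbours (grey), against the distance of the gene's start from that of Gm4858, in kb. In control only Tdpoz1 among the members is above 0.1 CPM, and in KO the members range from 0.453 to 10.4 CPM.

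The sequence before the starts of the members was also compared. The RefSeq promoter table on GRCm38.p6 holds windows of 300 bases for Gm4858, Tdpoz1, Tdpoz4 and Tdpoz5. Shown are the 250 bases before the outer start of Gm4858, chr3:93068573-93068822 on the plus strand, and before the RefSeq start of Tdpoz1, chr3:93676284-93676533 on the minus strand. They were chosen because they are alike although the genes lie far apart. GENCODE vM21 starts Tdpoz1 at base 93676310, so the last bases printed for it lie inside the GENCODE gene. Capitals mark TAATCC, searched on both strands, the letters that the embryonic homeodomain factors of the OTX and OBOX kind are known to favour.
Gm4858: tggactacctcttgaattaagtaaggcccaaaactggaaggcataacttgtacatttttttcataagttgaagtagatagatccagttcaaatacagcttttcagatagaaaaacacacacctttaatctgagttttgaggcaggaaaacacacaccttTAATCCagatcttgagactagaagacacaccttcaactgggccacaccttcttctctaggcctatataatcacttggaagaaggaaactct
Tdpoz1: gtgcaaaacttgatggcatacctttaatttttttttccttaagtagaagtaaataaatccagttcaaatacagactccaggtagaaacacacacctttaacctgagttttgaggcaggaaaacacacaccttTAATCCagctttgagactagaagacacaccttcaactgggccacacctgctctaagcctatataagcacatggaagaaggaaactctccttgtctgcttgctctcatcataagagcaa
Aligned, the 2 stretches were identical in 195 of 218 columns (89.4%), with a longest shared run of 39 bases that holds the capitals. The TAATCC motif was found in 2 of the 5 member windows, these 2, and in 7.1% of all 32851 windows in the table. The windows of Tdpoz4, of Tdpoz5 and of the inner start of Gm4858 take an ATG as the start. They may therefore not cover a promoter, and nothing is read from a motif missing there. CCAAT was found on either strand in 3 of the 5, in Gm4858, Tdpoz1 and Tdpoz5, and in 37.4% of all windows.

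TAATTG occurred in the window of Tdpoz5 alone and in 8.0% of all windows, and neither TATAAA (13.6% of all windows) nor TGATTNAAT (0.7%) occurred in a member window. Only these exact letters were searched, and the similar TATATAA, present in both stretches printed above, was not counted. The window at the inner start of Gm4858 and that of Tdpoz4 shared 96.2% of their aligned bases, close to the 94.3% of their coding sequences, and held none of the motifs. The window of Tdpoz1 matched that of Gm9125, which RefSeq calls Tdpoz9, at all 272 aligned bases. In Gm9125 KO replicates 1 to 4 had 2, 7, 40 and 97 counts, against 2, 1, 1 and 2 in control. A match of letters is a description of the sequence and not a site.

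Genes for other MATH domain proteins had a median change close to that of all genes. Of the 12 listed, all passed the filter, 4 were called higher, 1 lower and 7 not called. The share called higher was 33.3%, and over all genes 23.8% were called higher and 6.56% lower. The median log2 fold change was 0.04 against 0.12 over all genes. Spop itself averaged 84.3 CPM in control (SD 4.66, n = 4) and 96.3 CPM in KO (SD 5.40, n = 4), with an adjusted p of 0.126 by quasi-likelihood in edgeR. Its paralogue Spopl rose from 5.95 ± 1.01 to 14.4 ± 2.38 CPM, by 1.27 on the log2 scale (adjusted p = 0.00012 by the same edgeR fit).

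The signalling adaptors of the TRAF group carry the same domain without a BTB domain. Traf2 rose from 1.95 ± 0.583 to 9.18 ± 1.62 CPM (SD, n = 4), Traf3 from 12.6 ± 1.20 to 37.5 ± 4.76 CPM and Traf6 from 1.88 ± 1.07 to 10.2 ± 1.4 CPM, with log2 fold changes of 2.23, 1.57 and 2.38. Traf1 fell from 1.70 ± 0.276 to 0.752 ± 0.271 CPM. Of the 5 called genes of this list, only Traf3 had KO replicates 3 and 4 above KO replicates 1 and 2, at 41.8 and 39.6 CPM against 38.0 and 30.8 CPM.

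The machinery of CUL3 ligases, the scaffold to which BTB adaptors bind and its regulators, held few called genes. Of 24 genes, which encode the scaffold, the RING subunit, the neddylation enzymes and the COP9 signalosome, 1 was called higher and none lower, beside 23.8% and 6.56% of all genes, with a median log2 fold change of -0.34. Cul3 averaged 97.0 CPM in control (SD 27.6, n = 4) and 124 CPM in KO (SD 19.6, n = 4), with an adjusted p of 0.113 by quasi-likelihood in edgeR. The gene called was Dcun1d3, which encodes a regulator of cullin neddylation, from 11.3 ± 2.57 to 28.2 ± 5.77 CPM. Without the 2-fold threshold, 12 of the 24 were called, 1 higher and 11 lower.

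Of 38 genes for other BTB proteins, many of them CUL3 adaptors, 11 were called higher and 2 lower (28.9% higher, beside 23.8% of all genes), with a median log2 fold change of 0.45. The largest changes were those of Btbd6, from 0.140 ± 0.109 to 1.64 ± 0.880 CPM (SD, n = 4), Enc1, from 1.74 ± 0.389 to 13.1 ± 1.96 CPM, and Kbtbd2, from 1.61 ± 0.579 to 9.79 ± 0.808 CPM. Enc1 and Kbtbd2 encode kelch repeat adaptors, and their KO libraries lay close together, between 10.8 and 15.3 CPM and between 8.82 and 10.7 CPM, unlike those of the members.

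The profile of the family sum over the 8 libraries was compared with those of 13755 other genes that averaged 1 CPM or more. Likeness was measured as the root mean square (RMS) difference of gene-centred log2 CPM, which is smaller for more similar profiles. The 5 nearest genes were B020004C17Rik (RMS 0.28), Gm6803 (0.34), Gm2016 (0.41), Usp17la (0.43) and BB287469 (0.51). None of them matched a member over at least 500 bases or lay on chromosome 3. With 435 exon bases, Gm6803 was too short for such a match. Gm6803, Gm2016 and BB287469 are on chromosome 12, B020004C17Rik is on chromosome 14, and Usp17la, on chromosome 7, encodes a deubiquitylating enzyme. Among the members the distance to the sum was smallest for Tdpoz3 (0.57) and Tdpoz1 (0.90) and largest for Tdpoz5 (2.23).

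Since these genes were chosen for their likeness over the same libraries, their values are a description. B020004C17Rik had 3.15, 2.36, 16.1 and 14.4 CPM in KO replicates 1 to 4, with 3, 0, 1 and 0 counts in control. Usp17la had 3.36, 2.91, 16.5 and 24.9 CPM in KO replicates 1 to 4 and no control count. Levels of Gm6803, Gm2016 and BB287469 were 1.37 to 2.82 CPM in KO replicates 1 and 2 and 11 to 21.2 CPM in KO replicates 3 and 4.

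Most of the listed genes of the 2-cell stage were also higher in KO oocytes. Of the 16 listed, 15 were in the table and tested, and 14 were called higher and none lower (93.3% higher, beside 23.8% of all genes). The list holds mainly Zscan4 and Usp17l genes and was written with earlier results of these data known. Their sum was 121, 90.1, 103 and 92.8 CPM in control replicates 1 to 4 and 409, 403, 1106 and 1127 CPM in KO replicates 1 to 4, with Usp17lb and Zscan4d the highest single genes in KO replicates 3 and 4. Both KO replicates 3 and 4 lay above both KO replicates 1 and 2 in 14 of the 15, a pattern not counted over all genes. The exception was Duxf3, at 0.543, 0.439, 0.925 and 0.443 CPM, and the gene not called was Tcstv1, at 119, 122, 150 and 145 CPM. The largest changes were in Gm2022, Usp17la and Zscan4e, with no control count and 18.4, 11.9 and 6.73 CPM on average in KO. Zscan4e, a gene of the 2-cell zinc finger cluster, had 0.977, 0.439, 12.8 and 12.7 CPM in KO replicates 1 to 4.

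**Figure D4:**
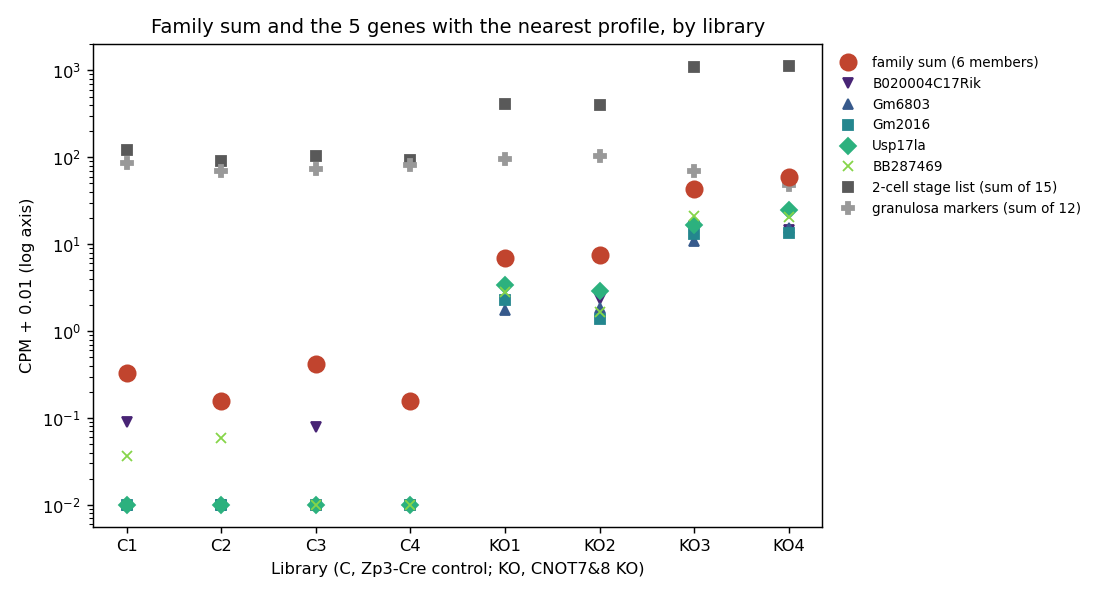
CPM (+ 0.01, log axis) of the family sum, of the 5 genes with the nearest profile, of the summed 2-cell stage list and of the summed granulosa cell markers in the 4 Zp3-Cre control libraries (C1 to C4) and the 4 CNOT7&8 KO libraries (KO1 to KO4), 1 point per library. The family sum is 0.146 to 0.408 CPM in control and 6.84, 7.52, 43.6 and 59.5 CPM in KO1 to KO4, and the granulosa markers are lowest in KO4.

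Granulosa cell markers did not follow the members across the KO libraries, whereas the leukocyte sum, although low, was higher in every KO than in every control library. All 12 granulosa cell markers had a count, and their sum was 70.4 to 85.3 CPM in control and 95, 103, 69.7 and 47.4 CPM in KO replicates 1 to 4, lowest where the members were highest. Most of the control sum was Cyp19a1, which averaged 58.4 CPM in control and 31.3 CPM in KO, so the sum hides rises of other markers. Inha averaged 6.86 CPM in control and had 38.4, 34.1, 26.45 and 4.77 CPM in KO replicates 1 to 4. Fshr averaged 1.29 CPM in control and 3.87 CPM in KO. Of 11 tested, 3 were called higher (Fshr, Inha and Inhba), 27.3% beside 23.8% of all genes, and of the defining markers Foxl2 had at most 1 count in each library. The 6 leukocyte markers summed to 1.04 to 2.42 CPM in control and to 3.47, 3.73, 5.36 and 4.12 CPM in KO replicates 1 to 4, with Cd68 and Ptprc called higher and Cd3e at no more than 1 count in each library. The part of other cells in the result was not tested. In libraries made from pooled oocytes, more oocytes with these transcripts and more transcripts in each oocyte cannot be told apart.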

How the data were processed

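RNA-seq libraries were prepared from total RNA of GV oocytes, with a stranded kit that the labels give as a total RNA kit with ribosomal RNA removal and the study's methods as an mRNA kit; which was used is not settled. The authors mapped 150-bp read pairs to GRCm38 with STAR 2.6.1d through nf-core/rnaseq, and the counts per gene that the authors deposited for 8 libraries carry no normalization. The counting tool, annotation, strand setting and treatment of multiply mapped reads are not given in the sources used here. Of the gene identifiers, 98.2% were found in GENCODE vM21, which supplied positions and coding sequences. RefSeq supplied promoter windows.

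Genes that reached 0.2 CPM in 2 libraries entered the test in edgeR 4.0.16 (R 4.3.3), with TMM factors of 0.849 to 0.943 in control and 1.066 to 1.141 in KO libraries, by the quasi-likelihood test with Benjamini-Hochberg adjustment. The fit was tested on simulated data. DESeq2 1.42.0, edgeR's exact test, other scalings and filters, a replicate block and leaving out libraries were alternatives. Ratios over 1 to 3 control counts have exact binomial intervals at 95%. Named genes were the members, Cnot7 and Cnot8, the called genes of each list (or, where more than 5, the 3 with the largest change), and the 5 nearest profiles. The members and lists were chosen with earlier results of these data known. Same-numbered libraries of the 2 groups deviated with correlations from -0.39 to 0.31, so the numbers were not taken as pairs.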

Additional observations from a re-analysis of the deposited data

Results flagged for a closer look

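Each group of 4 libraries was searched for a library far from the other 3 by Dixon's criterion, leaving out groups with at most 3 counts in each library. Of 63 groups, 4 held such a library, where chance gives about 3.15, or 1 in 20. No member and none of the sums tested was among them. Cnot7 was at 1050 CPM in control replicate 1, with 900.0 CPM in the nearest control library. Spopl was at 7.46 CPM in control replicate 1, with 5.51 CPM in the nearest. Traf1 was at 1.15 CPM in KO replicate 2, with 0.651 CPM in the nearest. Ptprc was at 0.340 CPM in control replicate 3, with 0.0728 CPM in the nearest.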

How the results depend on the processing

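No result changed direction. Scaling by library size alone shifted the median log2 fold change by 0.29, and TMM over genes that averaged 10 CPM or more by 0.25. Genes called lower then numbered 588 and 627 in place of 1263, and the share of higher genes among the calls went from 78.4% to 90.6% and 89.8%. Without the 2-fold threshold, 4631 genes were lower, 12 CUL3 genes and 25 BTB genes were called. Requiring 1 CPM in 4 libraries left 2882 genes higher, 2 members (of 2 tested) and 4 neighbours called. Without both control replicate 1 and KO replicate 4, 3 members (of 3 tested) and 14 neighbours were called. DESeq2 called 5 of 6 members, all but Tdpoz2. Calls of members are a description here too, since the same contrast chose them.

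With each library left out in turn, 4232 to 4603 genes were higher and 1032 to 1430 lower. The members called were 3 to 6, 3 of them without KO replicate 3 or 4, the called CUL3 genes 1 to 2 (2 without control replicate 2), the called BTB genes 11 to 14, the called neighbours 9 to 26 (9 and 11 without KO replicates 3 and 4), and the log2 ratio of the family sum 6.27 to 7.21. Of the neighbours called higher with no match to a member over at least 500 bases, 8 became 4 without KO replicate 3 and 5 without KO replicate 2. The cause of these shifts was not tested, beyond the number of genes that passed the filter. With the replicate block, 4316 genes were higher, 1254 lower and 6 members called. Depth limits Tdpoz2, Tdpoz4 and Tdpoz5 most, since KO replicate 1 cannot show less than 0.326 CPM.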
